A study of Mus musculus with 9 samples.

Results

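The transcripts described here encode 3 ligands of the transforming growth factor beta (TGF-beta) family and 5 proteins that cut, anchor or release such ligands. The ligand genes are Tgfb1, Tgfb3 and Gdf11. The others are Furin, which encodes a proprotein convertase, Lrrc32 and Ltbp3, which encode proteins that hold latent TGF-beta, and Itgav and Itgb8, which encode the alpha v and beta8 integrin chains. The 8 genes were chosen by name, without a threshold on any measured value, but with earlier results of these data known. They are 8 of the 25759 gene rows of the deposited table.

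Expression was measured by RNA sequencing of mouse CD4+ T cells in 9 libraries, 3 in each of 3 groups. The activated knockout group came from mice of genotype BMPR1a/CD4cre, conditional knockouts of a bone morphogenetic protein receptor whose Cre recombinase is driven by the Cd4 promoter, already active in developing T cells. The activated WT group came from wild-type mice, and both activated groups were cultures of lymph node and spleen held for 3 days in ConA, a T cell mitogen, at 2 ug/ml and LPS at 10 ng/ml, then sorted as CD4+CD44+CD62L-Foxp3GFP-. The naive WT group was not cultured and was sorted as CD4+CD44-CD62+Foxp3GFP-. Mice of all 3 groups are labelled C57BL/6, carried the Foxp3GFP reporter transgene and were 8 to 12 weeks old. Whether replicates were separate mice or cultures is not stated, and each p-value therefore reflects only how far these libraries spread, which may be technical.

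Values are FPKM, fragment counts scaled to transcript length and to the mapped fragments of the library, and read depth is unknown. Between 12922 and 13395 genes per library reached 1 FPKM. The targeted gene Bmpr1a was at 0.957, 1.93 and 1.20 FPKM in the activated knockout libraries, against 2.16, 2.92 and 1.40 FPKM in those of activated WT, and 0.460, 0.311 and 0.336 FPKM in naive WT cells. The activated groups overlapped (log2 fold change -0.41, limma adjusted p = 0.261), and a value over all exons also counts reads outside a deleted part, so it does not settle the genotype. The 6 T cell markers Cd4, Cd3e, Cd3d, Cd3g, Cd28 and Trbc2 were each above a group mean of 1 FPKM in every group. Only Cd4 among them tells CD4 from CD8 T cells. Markers of other cells were present too: both CD8 genes summed to 220 to 279 FPKM in the activated knockout, 147 to 230 in the activated WT and 9.48 to 41.4 in the naive WT libraries, and 6 neutrophil genes summed to 0.108 to 1.09 FPKM in the activated knockout, 0.0355 to 0.374 in the activated WT and 54.6 to 671 in the naive WT libraries. The 5 B cell markers summed to 115 to 175 FPKM in the activated knockout, 125 to 158 in the activated WT and 2.79 to 167 in the naive WT libraries, lowest in naive library 2, and the 5 erythroid markers summed to 0.965 to 1.72 FPKM in the activated knockout, 0.816 to 1.02 in the activated WT and 63.5 to 84.1 in the naive WT libraries. The part of all these cells in the members' levels was not tested. Genes of platelets, which are rich in TGF-beta1, summed to at most 2.59 FPKM in the activated knockout, 3.63 in the activated WT and 2.501 in the naive WT libraries. In bulk samples such as these, a change in the number of cells of a type and a change in RNA per cell cannot be told apart.

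TGF-beta family ligands are made as precursors, and furin or a related convertase cuts each precursor between its prodomain and the mature growth factor. In the TGF-beta isoforms the cut prodomain stays wrapped around the growth factor as a latent complex, which is tethered by a latent TGF-beta binding protein or, on the cell surface, by GARP, the product of Lrrc32. Integrins that contain alpha v bind a short arginine-glycine-aspartate motif in the prodomain and release the growth factor. In T cells TGF-beta1 restrains activation and takes part in the differentiation of regulatory and IL-17-producing cells.

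The coding bases around these sites show where furin or a related convertase, and the integrins, can meet the ligands. The first set holds the convertase site of each of the 3 ligands, with 24 bases on either side, from the GENCODE transcripts of GRCm38. Capitals mark the 4 codons of the motif that starts and ends in arginine, and the bases after them open the mature growth factor. The Tgfb1 site is in exon 5 at chr7:25697211-25697270 on the plus strand, the Tgfb3 site in exon 5 at chr12:86062030-86062089 on the minus strand, and the Gdf11 site in exon 3 at chr10:128885412-128885471 on the minus strand.
Tgfb1 convertase site: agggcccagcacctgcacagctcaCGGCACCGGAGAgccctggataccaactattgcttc
Tgfb3 convertase site: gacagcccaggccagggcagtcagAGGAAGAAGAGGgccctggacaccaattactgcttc
Gdf11 convertase site: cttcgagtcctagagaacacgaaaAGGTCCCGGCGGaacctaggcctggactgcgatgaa
The motif starts at codon 275 of 390 in Tgfb1, at codon 297 of 412 in Tgfb3 and at codon 293 of 405 in Gdf11. It leaves mature parts of 112, 112 and 109 codons, and 247 of the 336 bases of the mature part (73.5%) are identical between Tgfb1 and Tgfb3.

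The second set holds the integrin-binding motif of the prodomain, again with 24 coding bases on either side, and capitals mark its 3 codons. In Tgfb1 the stretch runs from exon 4 into exon 5 across an intron, within chr7:25696989-25697174 on the plus strand, and in Tgfb3 it lies in exon 5 at chr12:86062141-86062197 on the minus strand.
Tgfb1 integrin motif: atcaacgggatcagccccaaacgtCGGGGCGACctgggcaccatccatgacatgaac
Tgfb3 integrin motif: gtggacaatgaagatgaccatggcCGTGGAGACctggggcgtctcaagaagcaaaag
The motif starts at codon 244 in Tgfb1 and at codon 261 in Tgfb3. The coding sequence of Gdf11 held 0 such motifs. Both ligands with the motif also share the anchoring proteins encoded by Lrrc32 and Ltbp3, whereas the GDF11 prodomain is known to be cut again by proteases of the BMP1 and tolloid family.

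The levels of the members spanned a wide range within each group. Tgfb1 was the highest in all 3 groups, followed by Furin, Itgav and, in that order, Gdf11, and the libraries of neighbouring genes in this order did not overlap. In the activated knockout Tgfb1 averaged 67.3 ± 3.13 FPKM, Furin 41.8 ± 10.3, Itgav 7.92 ± 0.365 and Gdf11 3.13 ± 0.242 FPKM (SD, n = 3). Below these, Gdf11 and Lrrc32 overlapped in the activated knockout, Tgfb3, Lrrc32 and Ltbp3 overlapped in the activated WT, and Tgfb3 and Lrrc32 overlapped in the naive WT libraries. Itgb8 was the lowest member in both activated groups and Ltbp3 the lowest in naive cells. Genes were tested if their mean over the 9 libraries was at least 0.5 FPKM, which left 15126 genes and 6 of the 8 members, without Ltbp3 and Itgb8. Tgfb3 and Lrrc32 averaged under 0.5 FPKM in naive cells and so passed through their activated libraries.

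**Figure D1:**
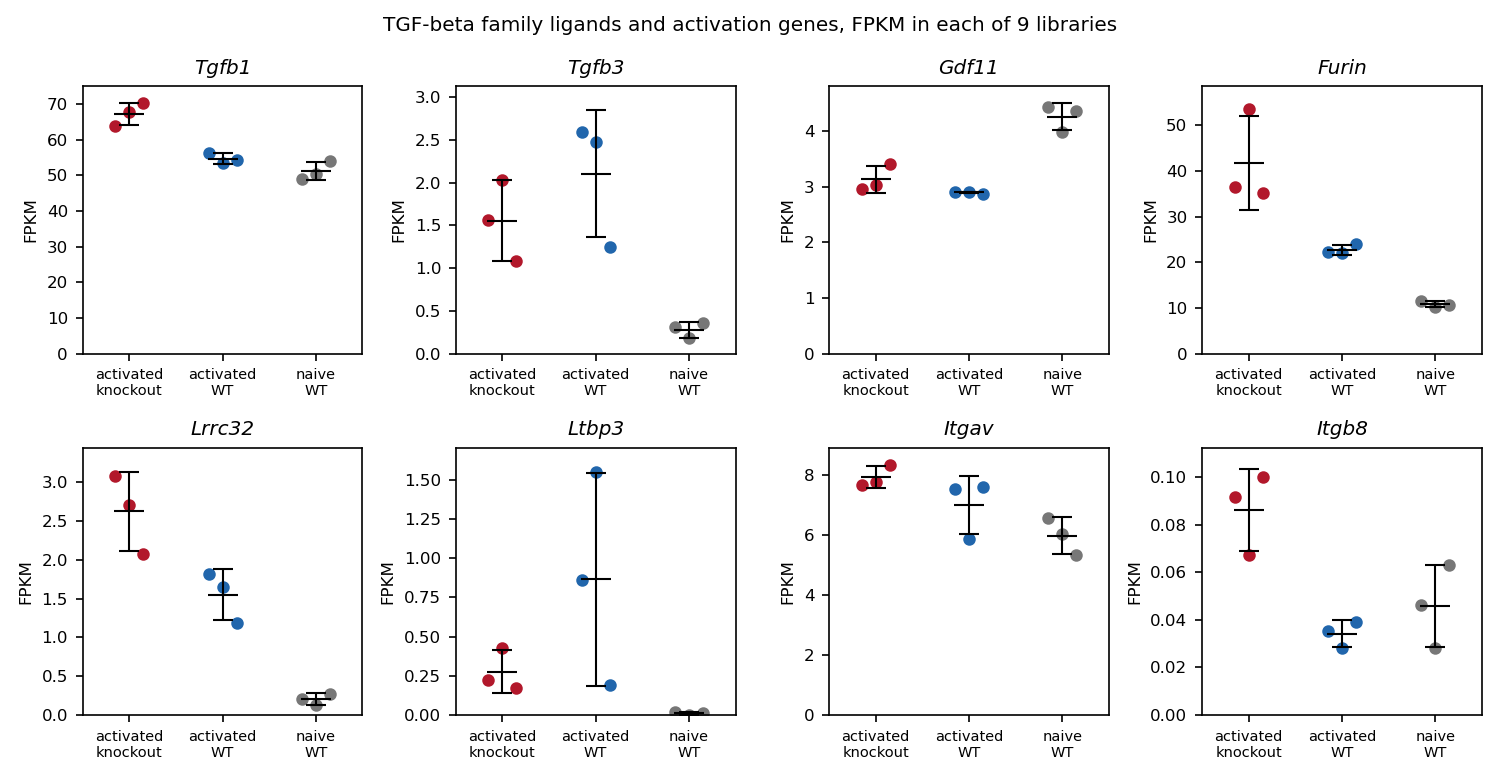
FPKM of the 8 members in each library, 1 panel per gene, with the activated knockout, activated WT and naive WT groups from left to right; points are libraries and bars are group means with SD (n = 3). Tgfb1 lies between 49.1 and 70.2 FPKM in all groups, the 3 groups of Furin do not overlap, and Itgb8 reaches at most 0.0999 FPKM.

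Activated WT cells were set against naive WT cells to see which of these transcripts differed after stimulation, which cannot be told apart from the culture and the sort. Furin, Tgfb3 and Lrrc32 were higher in activated WT cells, Gdf11 was lower, and Tgfb1 and Itgav did not pass the test. Of the 6 members tested, 4 were thus called by limma at an adjusted p under 0.05, 3 of them higher, where 52% of all tested genes were called, 26.2% higher and 25.8% lower. The same 4 had groups that did not overlap, as did 59.4% of all tested genes, 29.6% higher and 29.8% lower. The median log2 fold change of the 6 was 0.60, against -0.01 over all tested genes. Since 2 of the 3 genes that were higher entered the test through their activated libraries, the count says nothing about the members as a set.

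The activated knockout was set against activated WT cells, which bears on what differs with the BMPR1a/CD4cre genotype after the same stimulation. Furin and Tgfb1 were higher in the knockout, and the other 4 tested members did not pass. The 2 calls of 6 stand beside 4.14% of all tested genes called, 3.3% higher and 0.84% lower. The median log2 fold change of the 6 was 0.23, against 0.06 over all tested genes. Since the members were chosen with earlier results of these data known, neither value says anything about them as a set. All knockout libraries lay above all activated WT libraries for 6 of the 8 members as deposited, namely Tgfb1, Gdf11, Lrrc32, Furin, Itgav and Itgb8, 5 of them tested, and 22.8% of all tested genes did so. Of all genes called here 79.7% were higher in the knockout, against 54.2% after median-of-ratios scaling. In either direction the groups were apart for 31.2% of tested genes, with 8.36% lower in the knockout. After median-of-ratios scaling, which evens out a difference in overall level between the libraries, this held for Tgfb1, Lrrc32, Furin and Itgb8, and for 14.5% of tested genes. For 0 members did all knockout libraries lie below the activated WT libraries under either scaling. With 3 libraries against 3, the smallest p that an exact two-sided permutation test can give is 0.1, so the calls rest on the limma fit.

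The activated knockout was also set against naive WT cells, where genotype and activation differ together and the libraries are shared with the other comparisons. All 6 tested members were called there, 5 higher and Gdf11 lower, where 56.9% of all tested genes were called, 31.8% higher and 25.1% lower. All 6 also had groups that did not overlap, as did 63.8% of all tested genes, 35.2% higher and 28.7% lower. Tgfb3 and Lrrc32 entered the test through their activated libraries here too, so this count also says nothing about the members as a set.

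**Figure D2:**
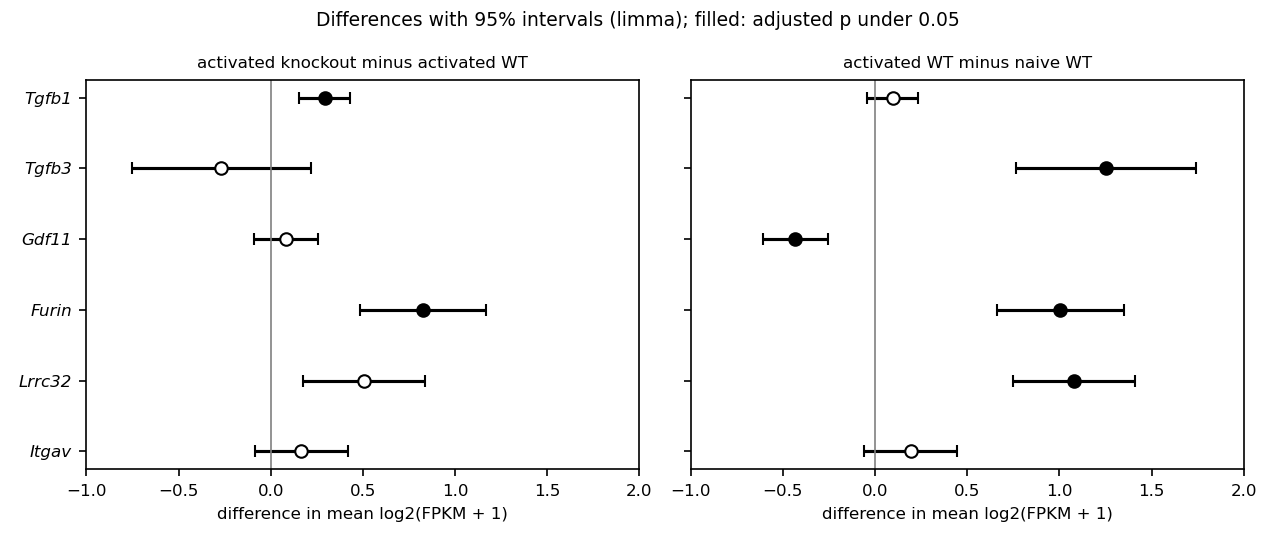
Log2 fold change on the log2(FPKM + 1) scale of the 6 tested members for activated knockout against activated WT (left) and activated WT against naive WT (right), with 95% confidence intervals from the limma fit; filled points passed the test. Furin lies to the right of 0 in both panels, Gdf11 lies to the left for activated against naive WT, and the interval of Tgfb3 between activated knockout and activated WT runs from -0.75 to 0.22.

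Among the ligands, Tgfb1 (ENSMUSG00000002603, chr7:25687002-25705077, plus strand, GRCm38) encodes TGF-beta1, the isoform that T cells mainly make. It was at 64.0, 67.7 and 70.2 FPKM in the activated knockout libraries, against 56.3, 53.5 and 54.3 FPKM in the activated WT and 49.1, 50.5 and 54.0 FPKM in the naive WT libraries. Every knockout library lay above every WT library, while the activated and naive WT libraries overlapped. The knockout exceeded the activated WT by 0.29 on the log2(FPKM + 1) scale (SE 0.0599, 95% confidence interval 0.15 to 0.43, limma adjusted p = 0.0422), a ratio of means of 1.23. That call was close to the threshold and was lost in 11 of the 17 alternative analyses, with limma adjusted p between 0.00635 and 0.158 and log2 fold changes of 0.21 to 0.33. It was lost, among others, with median-of-ratios scaling, with quantile normalization, in a fit of the 6 libraries compared, and without naive library 1 or 2, any one activated WT library, or knockout library 2 or 3. Activated WT differed from naive WT by 0.09 (95% confidence interval -0.04 to 0.23, limma adjusted p = 0.219), a difference within the spread of the libraries that turned to -0.02 with quantile normalization. It was called in 1 of the 17 alternatives, with array quality weights (limma adjusted p = 0.0386). Knockout against naive cells gave 0.39 (limma adjusted p = 0.000949), which was called in all 17 alternatives and was 0.19 with quantile normalization, its smallest value.

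Tgfb1 made up most of the family's ligand transcripts in every library. Of 25 ligand genes of the family in the table, 21 were under 1 FPKM in every library and only the 3 ligands described here averaged at least 1 FPKM. Tgfb1 held 89.1%, 89.4% and 90.9% of the summed ligand FPKM in the activated knockout libraries, 87.6%, 86.8% and 88.5% in those of activated WT, and 88.6%, 89.5% and 89.6% in the naive WT libraries. The activated WT shares lay just below those of the other groups, whose ranges overlapped. The only other ligand gene that passed the filter was Lefty1, which encodes an antagonist of Nodal, and it was higher in activated than in naive WT cells (1.36 ± 0.0609 against 0.255 ± 0.0917 FPKM, SD, n = 3 each, log2 fold change 0.91, limma adjusted p = 0.00332).

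Tgfb3 (ENSMUSG00000021253, chr12:86056745-86079041, minus strand) encodes TGF-beta3, a second isoform that T cells can make. It was at 1.56, 2.03 and 1.08 FPKM in the activated knockout libraries, against 2.59, 2.47 and 1.25 FPKM in the activated WT and 0.305, 0.176 and 0.352 FPKM in the naive WT libraries. All 6 activated libraries lay above all naive ones, the activated groups overlapped, and library 3 was the lowest in both of them. Activated WT exceeded naive WT by 1.25 (SE 0.210, 95% confidence interval 0.77 to 1.74, limma adjusted p = 0.0017), a 7.58-fold ratio of means, and the call held in all 16 alternatives that tested the gene. The log2 scale with 1 FPKM added understates such low genes, and with 0.1 FPKM added the difference was 2.51. Knockout and activated WT differed by -0.27 (95% confidence interval -0.75 to 0.22, limma adjusted p = 0.476). Tgfb3 overlaps Ttll5, a tubulin ligase gene on the opposite strand that averaged 5.03 FPKM, and the strand setting of the quantification is not given in the sources used here.

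Gdf11 (ENSMUSG00000025352, chr10:128882295-128891718, minus strand) encodes growth differentiation factor 11, a relative of myostatin that signals through activin receptors. It was at 2.95, 3.03 and 3.405 FPKM in the activated knockout libraries, against 2.91, 2.90 and 2.88 FPKM in the activated WT and 4.43, 3.98 and 4.36 FPKM in the naive WT libraries. Gdf11 was the only tested member that fell on activation, and all activated libraries lay below all naive ones. The difference between activated and naive WT was -0.43 (SE 0.0758, 95% confidence interval -0.61 to -0.26, limma adjusted p = 0.00212) and that between knockout and naive WT was -0.35 (limma adjusted p = 0.00508), both called in all 17 alternatives. Between knockout and activated WT the difference was 0.08 (95% confidence interval -0.09 to 0.26, limma adjusted p = 0.551), and the libraries, apart as deposited, overlapped after median-of-ratios scaling.

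Furin (ENSMUSG00000030530, chr7:80388585-80405436, minus strand) encodes furin, a convertase of the kind that cuts these precursors. It was at 36.5, 53.7 and 35.3 FPKM in the activated knockout libraries, against 22.3, 22.0 and 23.96 FPKM in the activated WT and 11.5, 10.3 and 10.7 FPKM in the naive WT libraries. The 3 groups did not overlap, and knockout library 2 stood above the other knockout libraries. Activated WT exceeded naive WT by 1.005 (SE 0.148, limma adjusted p = 0.000913, ratio of means 2.10), and knockout exceeded naive WT by 1.83 (limma adjusted p = 4.1e-05, ratio of means 3.86), both called in all 17 alternatives. Knockout exceeded activated WT by 0.83 (SE 0.148, 95% confidence interval 0.48 to 1.17, limma adjusted p = 0.0337, ratio of means 1.84), and 95.5% of all tested genes had a smaller absolute log2 fold change there. This call was lost in 10 of 17 alternatives, with limma adjusted p from 0.00789 to 0.133 and log2 fold changes of 0.64 to 0.93. It was lost, among others, with median-of-ratios scaling, with quantile normalization, in a fit of the 6 libraries compared, and without naive library 1 or 2, any one activated WT library or knockout library 3, and it held without knockout library 2 (0.64, limma adjusted p = 0.025).

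Among 7 convertases of the furin family, the share of Furin did not overlap between any of the 3 groups. It was 68%, 75.2% and 69.4% of the summed FPKM in the activated knockout libraries, 57.8%, 56.5% and 56.3% in those of activated WT, and 35.8%, 35.5% and 34.7% in the naive WT libraries. Pcsk7, which encodes another convertase of the secretory pathway, supplied most of the rest and averaged 13.2 ± 1.07 FPKM in the activated knockout, 13.4 ± 0.752 in the activated WT and 14.7 ± 0.711 in the naive WT libraries (SD, n = 3 each). Of the other 10 convertases and prodomain proteases listed, 3 passed the filter on low values and 0 were called by limma in any of the 3 comparisons. These were Pcsk7, Pcsk4 and Mbtps1, whose limma adjusted p was at least 0.142, and 0 of them had an unadjusted p under 0.05.

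**Figure D3:**
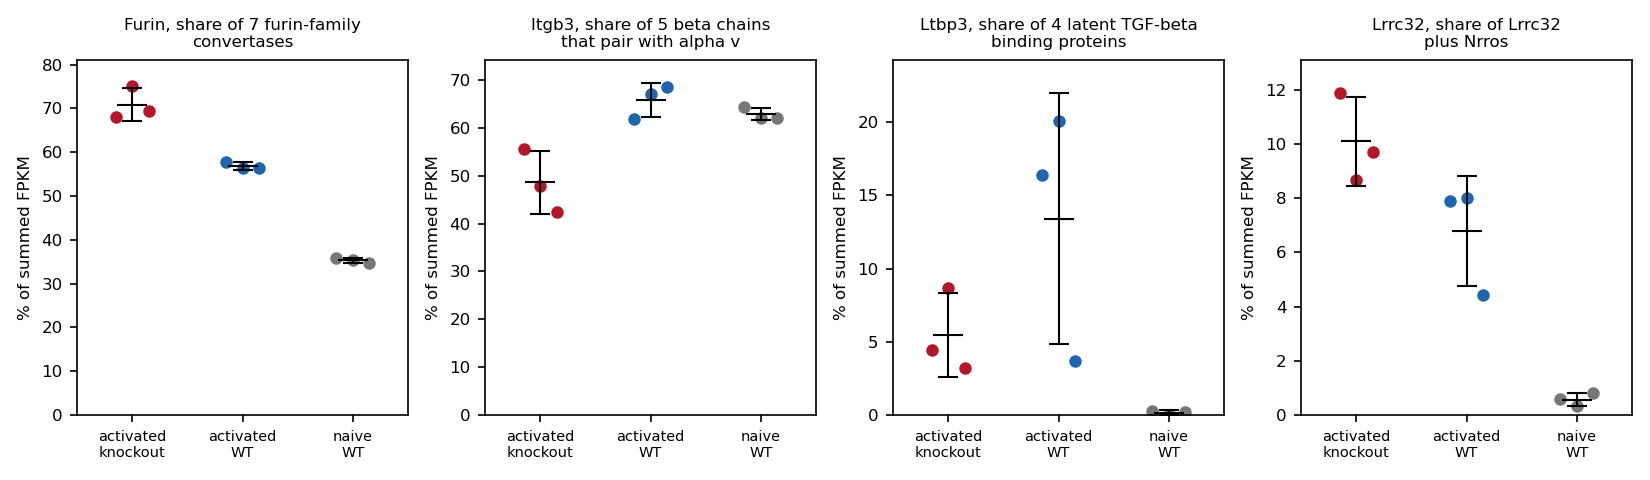
Percent of the summed FPKM of a role held by Furin, Itgb3, Ltbp3 and Lrrc32 in each library, with activated knockout left of activated WT and naive WT; points are libraries and bars are group means with SD (n = 3). Furin holds 68 to 75.2% of its role in the activated knockout, 56.3 to 57.8% in the activated WT and 34.7 to 35.8% in naive cells, and the share of Itgb3 is lowest in the activated knockout, at 42.5 to 55.5%.

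The 250 bases before each of the 2 annotated starts of Furin are shown because its transcript differed between all 3 groups, and these windows are where motifs of activation-induced factors were searched. They are from RefSeq (GRCm38.p6, minus strand), at chr7:80405437-80405686 for the upstream start and chr7:80402813-80403062 for the downstream start. Capitals mark the SMAD element CAGACA, found once in each, and the SP1 box GGGCGG on either strand, found 2 times in the downstream window.
Furin upstream start: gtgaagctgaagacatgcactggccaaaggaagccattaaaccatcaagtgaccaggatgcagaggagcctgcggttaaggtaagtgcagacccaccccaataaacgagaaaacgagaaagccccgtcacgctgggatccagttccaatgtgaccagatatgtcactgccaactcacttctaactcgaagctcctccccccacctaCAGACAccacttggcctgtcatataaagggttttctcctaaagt
Furin downstream start: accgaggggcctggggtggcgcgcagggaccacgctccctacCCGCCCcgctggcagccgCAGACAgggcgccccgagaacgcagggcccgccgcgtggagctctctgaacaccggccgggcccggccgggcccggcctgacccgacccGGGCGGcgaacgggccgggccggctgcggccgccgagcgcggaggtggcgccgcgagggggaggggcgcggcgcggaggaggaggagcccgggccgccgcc
Both strands were searched for 6 motifs. CAGACA was present in 17.1% and GGGCGG in 32.7% of 32851 windows of the same length before annotated mouse starts. The AP-1 motif TGANTCA (6.75% of windows), the STAT motif TTCNNNGAA (7.02%), an NF-kappaB motif (17.6%) and the hypoxia element core ACGTG (16.6%) had no match in either Furin window, which says only that these letters are not there. RefSeq windows matched 6 of the 8 members. The window of Itgb8 also held CAGACA, while those of Tgfb1 and Gdf11 held GGGCGG 5 and 8 times. The Tgfb1 window also held 1 match to the NF-kappaB motif.

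Lrrc32 (ENSMUSG00000090958, chr7:98489283-98502181, plus strand) encodes GARP, which displays latent TGF-beta on the cell surface and is known from activated regulatory T cells. It was at 3.08, 2.71 and 2.08 FPKM in the activated knockout libraries, against 1.82, 1.65 and 1.18 FPKM in the activated WT and 0.208, 0.128 and 0.275 FPKM in the naive WT libraries. The 3 groups did not overlap. Activated WT exceeded naive WT by 1.08 (SE 0.143, limma adjusted p = 0.00056), a 7.62-fold ratio of means, and the call held in all 16 alternatives that tested the gene. With 0.1 FPKM added before the logarithm, the difference was 2.45. The knockout mean was 1.69 times that of the activated WT, but the difference of 0.50 (SE 0.143, 95% confidence interval 0.17 to 0.84) was not called (limma adjusted p = 0.0853), nor was it in any alternative, where adjusted p ran from 0.0522 to 0.208.

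Cells positive for the Foxp3 reporter were sorted out, yet Foxp3 transcripts were read in every library. Foxp3, the defining transcription factor of these cells, was at 5.89, 2.21 and 4.31 FPKM in the activated knockout libraries, against 1.02, 0.989 and 0.867 FPKM in those of activated WT and 2.79, 2.73 and 2.43 FPKM in naive cells. Its difference of 1.32 between knockout and activated WT was called (limma adjusted p = 0.0351) but was lost in 9 of 17 alternatives, among them without naive library 1 or 2, any one activated WT library or knockout library 3. Foxp3 was lower in activated than in naive WT cells (-0.90, limma adjusted p = 0.0157), whereas Lrrc32 was higher. The 6 regulatory T cell markers, none of them at 0 throughout a group, summed to 189 to 318 FPKM in the activated knockout, 153 to 193 FPKM in the activated WT and 38.7 to 50.7 FPKM in the naive WT libraries. In the activated groups Il2ra and Tnfrsf18 made up most of these sums, while Gpr83, another marker of the list, lay below its naive levels, at 1.03, 0.668 and 0.468 FPKM in the activated knockout, 0.384, 0.383 and 0.489 FPKM in the activated WT and 4.41, 4.03 and 2.78 FPKM in the naive WT libraries. Ikzf2, also of the list, averaged 6.78 FPKM in the activated knockout, 3.68 in the activated WT and 0.904 in naive cells. Its difference of 0.71 between knockout and activated WT was called (limma adjusted p = 0.0478) but was lost in 14 of 17 alternatives. Nrp1 was at 2.91 to 3.40 FPKM in the activated knockout, 2.40 to 3.79 in the activated WT and 0.832 to 1.07 in naive cells. In the knockout Il2ra, which encodes CD25, a subunit of the receptor for interleukin-2, was highest in library 2 (57.7, 173 and 71.7 FPKM), as was Furin, against 73.3, 56.4 and 44.2 FPKM in the activated WT libraries. The part of these cells in the levels of Lrrc32 and Furin was not tested.

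Nrros encodes a relative of GARP that also holds latent TGF-beta, mainly in myeloid cells, and its transcript exceeded that of Lrrc32 in every library. Lrrc32 held 11.9%, 8.67% and 9.71% of the sum of both genes in the activated knockout libraries, 7.9%, 8% and 4.43% in those of activated WT, and 0.573%, 0.316% and 0.81% in the naive WT libraries. Activated WT cells had less Nrros than naive WT cells, with 21.9 ± 3.32 against 36.7 ± 3.35 FPKM (SD, n = 3 each, log2 fold change -0.72, limma adjusted p = 0.00564). Macrophage markers summed to 19.5 to 183 FPKM in the naive WT and 1.85 to 6.09 FPKM in the activated WT libraries. Neutrophil genes summed to 54.6 to 671 FPKM in the naive WT and 0.0355 to 0.374 FPKM in the activated WT libraries. The part of these cells in the Nrros levels and in the shares above was not tested.

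Ltbp3 (ENSMUSG00000024940, chr19:5740904-5758532, plus strand) encodes a latent TGF-beta binding protein of the extracellular matrix. It was at 0.225, 0.429 and 0.175 FPKM in the activated knockout libraries, against 0.862, 1.55 and 0.190 FPKM in the activated WT libraries, and it was at 0.0189 and 0.0129 FPKM in naive libraries 1 and 3 and listed at 0 in naive library 2. All activated libraries lay above all naive ones, and the activated groups overlapped, with library 3 the lowest in each. Its mean missed the filter, and in the fit without a filter, where 34.2% of 24895 genes were called, activated WT exceeded naive WT by 0.82 (SE 0.245, limma adjusted p = 0.0373). The knockout was not called against naive WT in that fit (0.33, limma adjusted p = 0.344), nor against activated WT (-0.48, limma adjusted p = 0.352).

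Ltbp3 and Tgfb3 varied among the activated libraries in an order close to that of 3 genes known to respond to low oxygen, a feature chosen, with its genes, after the values were seen. Egln3, which encodes an oxygen-sensing hydroxylase, was at 15.3, 25.8 and 7.71 FPKM in the activated knockout libraries, against 39.7, 40.0 and 10.2 FPKM in the activated WT libraries, and ranked the 6 libraries exactly as Ltbp3 did. Bnip3, a mitophagy receptor gene, was at 20.6, 51.0 and 13.7 FPKM in the activated knockout, against 73.5, 58.7 and 14.2 FPKM in the activated WT libraries, and ranked them as Tgfb3 did. Vegfa, which encodes a vascular growth factor, matched neither member exactly, since activated WT library 3 (9.25 FPKM) lay above knockout library 1 (6.98 FPKM). The highest activated library exceeded the lowest by 8.83 times for Ltbp3 and 2.41 times for Tgfb3, but by 1.31 times for Tgfb1. The part of oxygen supply in these levels was not tested.

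**Figure D4:**
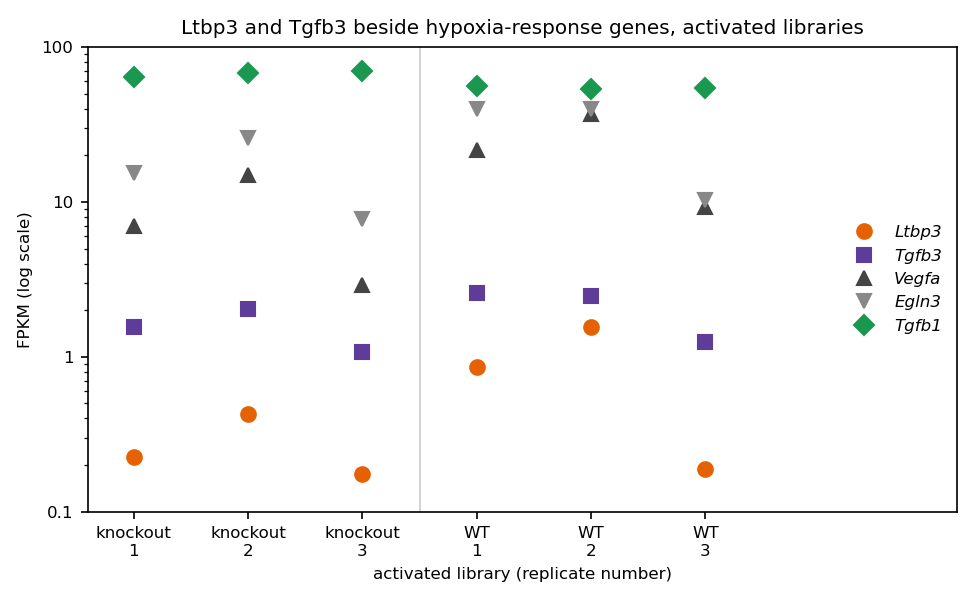
FPKM (log scale) of Ltbp3, Tgfb3, Tgfb1 and the hypoxia-response genes Vegfa and Egln3 in the 6 activated libraries, knockout left of WT. Ltbp3 and Tgfb3 are lowest in library 3 of each group, as are Vegfa (2.92 FPKM in knockout and 9.25 FPKM in WT library 3) and Egln3, while Tgfb1 stays between 53.5 and 70.2 FPKM.

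Itgav (ENSMUSG00000027087, chr2:83724397-83806916, plus strand) encodes the alpha v chain shared by the integrins that bind the prodomain motif of Tgfb1 and Tgfb3. It was at 7.65, 7.76 and 8.33 FPKM in the activated knockout libraries, against 7.51, 5.87 and 7.59 FPKM in the activated WT and 6.56, 6.01 and 5.33 FPKM in the naive WT libraries. Activated WT library 2 fell within the naive range. Activated WT and naive WT differed by 0.19 (95% confidence interval -0.06 to 0.45, limma adjusted p = 0.174), which turned to -0.00362 with array quality weights and was called without activated WT library 2 (0.30, limma adjusted p = 0.0426, within 0.0426 to 0.98 over the alternatives). Knockout and activated WT differed by 0.17 (95% confidence interval -0.09 to 0.42, limma adjusted p = 0.395), and their libraries overlapped after median-of-ratios scaling. Knockout exceeded naive WT by 0.36 (limma adjusted p = 0.0231), a call lost in 5 of 17 alternatives, namely with quantile normalization and without naive library 2 or 3 or knockout library 2 or 3, with adjusted p up to 0.114.

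Itgb8 (ENSMUSG00000025321, chr12:119158022-119238802, minus strand) encodes the beta8 chain, which pairs only with alpha v and is known for activating TGF-beta on dendritic cells and regulatory T cells. It was at 0.0916, 0.0670 and 0.0999 FPKM in the activated knockout libraries, against 0.0353, 0.0283 and 0.0392 FPKM in the activated WT and 0.0461, 0.0283 and 0.0629 FPKM in the naive WT libraries. The knockout libraries lay above all others, at levels far under the filter. Without a filter, knockout and activated WT differed by 0.07 (limma adjusted p = 0.0775, where 1.67% of genes were called), and knockout exceeded naive WT by 0.05 (limma adjusted p = 0.0313, where 38.9% were called).

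Of the 5 beta chains that can pair with alpha v, Itgb3 and Itgb1 held nearly all transcripts. These shares count transcripts, and how much of each chain is paired with alpha v was not measured. Itgb8 held 0.0978%, 0.0983% and 0.152% of their sum in the activated knockout libraries, 0.0398%, 0.0339% and 0.0551% in the activated WT and 0.0988%, 0.0672% and 0.135% in the naive WT libraries. Itgb3 held 55.5%, 47.9% and 42.5% in the activated knockout, 61.9%, 67% and 68.6% in the activated WT and 64.3%, 62.1% and 62.1% in the naive WT libraries, so its share was lowest in the knockout. Both genes were higher in activated than in naive WT cells, Itgb3 at 53.2 ± 3.88 against 28.4 ± 1.99 FPKM (log2 fold change 0.88, limma adjusted p = 0.00713) and Itgb1 at 27.5 ± 5.64 against 16.5 ± 1.002 FPKM (0.68, limma adjusted p = 0.00424). Between knockout and activated WT neither was called (Itgb3 -0.54, limma adjusted p = 0.148, and Itgb1 0.46, limma adjusted p = 0.0965).

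The genes around the members were taken from 7 lists, of which 87 genes were in the table and 37 passed the filter. Between activated and naive WT cells 28 of the 37 were called, 11 higher and 17 lower, where 52% of all tested genes were called. Lefty1, Nbl1, Fn1, Mmp9 and Tgfbi averaged under 0.5 FPKM in activated or in naive WT cells and so passed the filter through the other libraries, and the count is therefore partly set by the filter. Between knockout and activated WT 2 of 37 were called, both lower, which is 5.41% against 4.14%. The sites of storage and release moved in both directions: of 4 tested genes of the latent complex and matrix storage, Emilin1 was higher (6.81 ± 0.357 against 2.38 ± 0.296 FPKM, log2 fold change 1.21, limma adjusted p = 7.5e-05) and Nrros, Ltbp1 and Fn1 were lower in activated WT cells. Ltbp1 lost its call in 9 of 17 alternatives and Fn1 in 7 of 16. Of 9 tested activators and integrin chains, Tgm2, Itgb3, Itgb1 and Fermt3 were higher, and Mmp9 and Tln1 lower, of which Tln1 lost its call in 8 of 17 alternatives. Of 5 tested antagonists, Twsg1 and Nbl1 were higher and Wfikkn2 lower.

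The tested receptors and response genes were mostly lower in activated WT cells, where 25.8% of all tested genes were called lower and 26.2% higher. These lists were chosen with earlier results of the data known, so their counts say nothing about the roles as sets. Of 6 tested receptors, 5 were lower, among them Tgfbr2, the type II receptor of TGF-beta, with 59.8 ± 2.96 against 102 ± 5.25 FPKM (log2 fold change -0.76, limma adjusted p = 0.000152), and Acvr1b, a type I receptor of activins and GDF11, with 5.55 ± 0.423 against 17.8 ± 1.29 FPKM (-1.52, limma adjusted p = 1.2e-05). Tgfbr1 and Tgfbr3 were also lower, and Eng, a co-receptor, was higher (0.84, limma adjusted p = 0.033), a call lost in 9 of 17 alternatives. Of 9 tested TGF-beta responsive genes, 6 were lower, among them Smurf2, Ski, Tgfbi and Smad7, the inhibitory SMAD (18.5 ± 2.27 against 47.3 ± 3.89 FPKM, -1.31, limma adjusted p = 4.4e-05), and 2 were higher, Itgae and Tgif1. The difference of Tgfbi was -1.79 and -1.20 without naive library 2, and its call was lost in 2 of 16 alternatives. Fn1, Mmp9 and Tgfbi were highest in naive library 2, at 5.19, 5.51 and 7.81 FPKM, and the 6 macrophage markers, none of them at 0 throughout a group, summed to 2.81 to 5.97 FPKM in the activated knockout, 1.85 to 6.09 in the activated WT and 19.5 to 183 FPKM in the naive WT libraries; the part of those cells was not tested.

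The 2 listed genes that differed between knockout and activated WT were Wfikkn2, which encodes an antagonist of GDF11 and myostatin, and Smad7. Wfikkn2 averaged 0.880 ± 0.272 FPKM in the activated knockout, against 2.16 ± 0.150 FPKM in the activated WT (SD, n = 3 each, log2 fold change -0.76, limma adjusted p = 0.0358). Smad7 averaged 12.8 ± 0.859 FPKM in the activated knockout, against 18.5 ± 2.27 FPKM in the activated WT (log2 fold change -0.49, limma adjusted p = 0.0439). For both genes the knockout libraries lay below all activated WT libraries, but both calls were near the threshold. That of Wfikkn2 was lost in 9 of 17 alternatives and that of Smad7 in 10 of 17, and with no filter, or without naive library 1, activated WT library 2 or 3 or knockout library 2 or 3, 0 of the listed genes were called. By limma, 0 of the 6 tested receptors were called there and 1, Eng, had an unadjusted p under 0.05 (adjusted p = 0.142), and the difference of Tgfbr2 was -0.01 (limma adjusted p = 0.964).

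**Figure D5:**
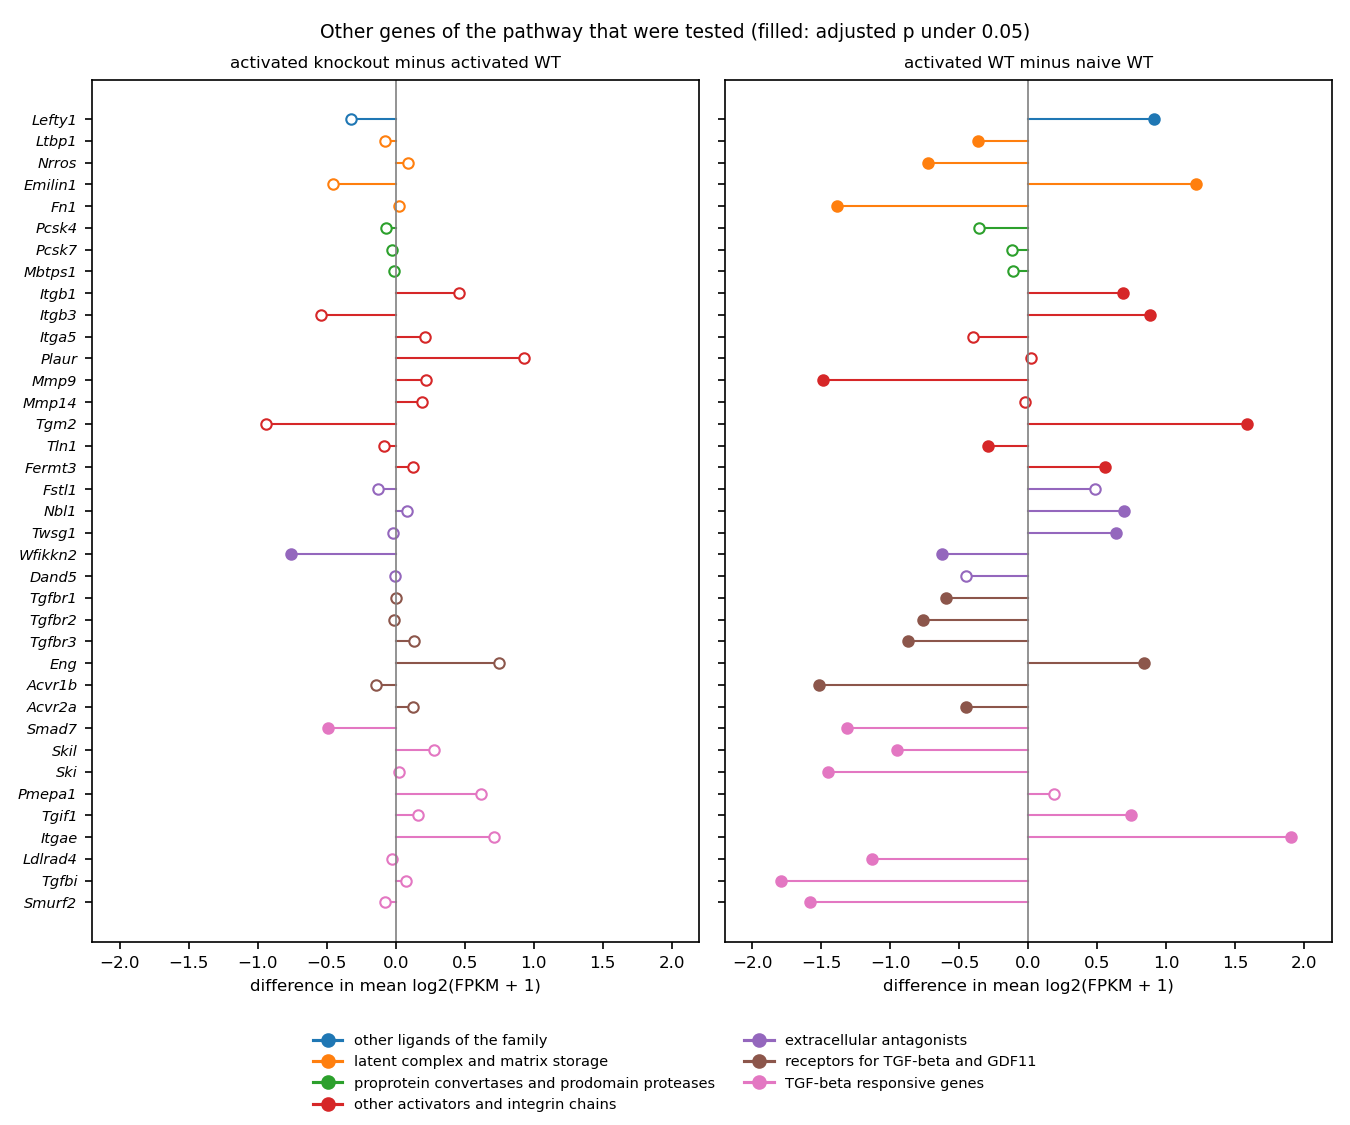
Log2 fold change of the tested pathway genes by role, knockout against activated WT beside activated WT against naive WT, with called genes marked. The receptors and the responsive genes lie mostly below 0 for activated against naive WT cells, with medians of -0.68 and -1.14, against -0.01 over all tested genes. Wfikkn2 and Smad7 are the called genes for knockout against activated WT.

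The likeness of expression profiles was measured as the root mean square difference of log2(FPKM + 1) over the 9 libraries, each gene centred on its own mean, among 8416 genes averaging at least 5 FPKM. The 2 nearest genes were Mtx1 (0.0359) and Tsn (0.0384) for Tgfb1, Rbm25 (0.0366) and Letmd1 (0.0502) for Gdf11, and Rad51d (0.0679) and Ubash3a (0.0799) for Itgav. Lrrc32 was nearest to Insig1 (0.0773) and Fdft1 (0.12), and Tgfb3 to Grhpr (0.0973) and Gys1 (0.12). The 1 FPKM added before the logarithm understates the changes of low genes such as Lrrc32 and Tgfb3. Their matches therefore do not mean equal fold changes. Mean Lrrc32 was 0.204 FPKM in naive WT and 1.55 in activated WT libraries, against 13.96 and 30.96 for Insig1. Mean Tgfb3 was 0.278 and 2.11 FPKM in the same groups, against 9.40 and 25.6 for Grhpr. Among the members, Tgfb1 and Itgav were each other's nearest (0.132), as were Furin and Lrrc32 (0.247), and the nearest member to Gdf11 was Tgfb1 at 0.314. The same limit holds for Furin and Lrrc32, whose ratios of means between activated and naive WT were 2.10 and 7.62.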

How the data were processed

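RNA sequencing of 9 libraries was analysed from gene-level FPKM values, which the authors deposited as 1 table. The submitters' processing notes name TopHat2, Cufflinks, Cuffdiff and build GRCm38, without versions, annotation or strand setting, so the values of members that overlap other genes are uncertain. Of the 25759 row identifiers, 24876 matched a symbol, and coordinates are from GENCODE for GRCm38.

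The 8 members and the gene lists were chosen with earlier results of these data known. Genes averaging 0.5 FPKM or more over the libraries (15126) entered a single limma fit of log2(FPKM + 1) with group means and no block (limma 3.58.1, R 4.3.3, empirical Bayes with trend). Tests were two-sided, Benjamini-Hochberg adjustment covered all tested genes, and a call needs an adjusted p under 0.05. The fit was tested on simulated data first. Exact permutation tests of single values were two-sided (scipy 1.17.1, Python 3.11.15). Log2 fold changes understate the change of low genes.

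All members were named, called or not. Other pathway genes were named if called with a group mean of at least 1 FPKM, at most 5 per list by absolute fold change. Nbl1, Tln1 and Tgif1, and the genes of regulatory T cells and of the oxygen response, were named outside that rule after their values were seen. Pcsk7, Pcsk4 and Mbtps1, which were not called, were also named outside it. There were 17 alternatives: another pseudocount, filters, scalings, weights, a replicate block, each library left out, and a fit of the 6 libraries compared. Their use on genes other than the members was added after the data were seen. The genes nearest to Furin in expression profile are not reported here.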

Additional observations from a re-analysis of the deposited data

How the results depend on the processing

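Of the 6 tested members, 4 were called between activated and naive WT cells, and 2 with a filter at a mean of 2 FPKM, which removes Tgfb3 and Lrrc32 from the test. Between activated knockout and activated WT 2 were called, and 0 with median-of-ratios scaling, with quantile normalization, with the replicate block or in a fit of the 6 libraries compared. Leaving out 1 library at a time gave 0 to 2 members called there, 4 to 5 between activated and naive WT, and 5 to 6 between knockout and naive WT. Over all genes, 626 were called between knockout and activated WT, and 416 with no filter, 306 with median-of-ratios scaling, 324 with quantile normalization, 3851 with array quality weights, 92 in the fit of 6 libraries and 64 to 1037 with 1 library left out. Of these calls 79.7% were higher in the knockout as deposited, 54.2% with median-of-ratios scaling and 56.5% with quantile normalization. Member differences changed sign in 2 cases, both between activated and naive WT and neither called: Tgfb1 was -0.0201 with quantile normalization and Itgav -0.00362 with array quality weights. The 2 other pathway genes called between knockout and activated WT became 10 with array quality weights, 0 with no filter, with the replicate block or in the fit of 6 libraries, and 0 to 4 with 1 library left out. The 28 called between activated and naive WT ran from 22 to 30 over the alternatives. The cause was not tested. Replicate numbers were not taken as pairing the libraries: deviations of the 9 same-numbered pairs correlated at 0.0027 to 0.054, under the 0.1 required, against -0.0682 to 0.0375 for the 18 other pairs, and in 12 of 18 combinations of a library and another group the own number correlated best. The replicate block left 58 genes called between knockout and activated WT. Read depth is unknown, so the precision of the low members Ltbp3 and Itgb8 cannot be stated.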
